A study of Drosophila melanogaster with 12 samples.

Results

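Wild-type heads were compared with wild-type bodies of adult Drosophila melanogaster, 4 libraries of each, chosen by their tissue and genotype labels from the 12 libraries of a study that also profiled an RNA polymerase II mutant. All 8 libraries came from the strain w1118 and carried no allele or treatment named in the labels. The assay, for which the labels cite 3'READS and 3'READS+, captures the 3′ ends of polyadenylated RNA, so each read marks a cleavage and polyadenylation position. Which of these protocols each library used is not stated. The labels give no age or sex, no number of pooled flies, and no statement that the replicates were separate animals. The p-values therefore measure the spread between these libraries, which may be technical. Replicates 1 and 2 of both tissues carry sample numbers far from those of replicates 3 and 4, and this range entered each model as a term.

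A cleavage site sets where a messenger RNA ends, and many fly genes have several. A downstream (distal) site in the last exon leaves a longer 3′ untranslated region (3'UTR), and a site upstream of that region, in an intron or the coding sequence, can change the protein. The fly nervous system is known for long 3'UTRs, a choice promoted by the neuronal RNA-binding proteins ELAV and FNE. The head holds the brain and the compound eyes, while the body holds the gut, the reproductive organs and most of the muscle.

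The libraries held 2461527 to 7885275 reads in heads and 2219693 to 8591047 reads in bodies. The mitochondrial genome took 8.33% to 24.9% of reads in heads and 5.31% to 24.2% in bodies. Genes could be named on 2 stretches, 2L up to 22258266 and 3L up to 4919025, which hold 5227 annotated genes. Levels of genes are given as CPM, read counts scaled (TMM) to a common total over the named genes, and levels of sites as CPM over all chromosome arms. A gene or site is called when the edgeR quasi-likelihood test gave a Benjamini-Hochberg adjusted p under 0.05.

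Marker genes were summed first as a check of the labelled tissue. The 12 eye genes reached 108579, 81368, 44520 and 39374 CPM in the heads, and 5364, 11972, 1036 and 684.9 CPM in the bodies, in replicate order. Every head library lay above every body library, and body replicates 1 and 2 lay above body replicates 3 and 4. The 26 seminal fluid genes summed to 190.7, 282.6, 1103 and 131.7 CPM in the heads, against 21183 to 45288 CPM in the bodies, so head replicate 3 stood apart from the other heads. The part that RNA of the other tissue played in the results was not tested. Counts of genes from the lists are therefore also given from replicates 3 and 4 alone and without head replicate 3 where they move by more than 1.5 times. The 16 female germline and eggshell genes, 3 of them without reads, summed to 802.2 to 1285 CPM in heads and 896.9 to 1276 CPM in bodies. Members of this list differed. The eggshell gene Vm26Aa had 27 reads over the 4 heads and 2 over the 4 bodies, and the germline helicase vas had 3 and 34. Other members had more reads in both tissues: grk had 411 and 575, bru1 1028 and 951, spir 879 and 1656, and kel 406 and 476.

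Of 2363 named genes tested, 410 were higher in heads (17.4%) and 717 were lower (30.3%), or 47.7% in all. The counts of called genes given below for each list are to be read against these shares. A gene read in heads or bodies alone could pass the filter on low counts through that tissue. In bulk tissue, fewer cells of a type and less RNA per cell cannot be told apart. When reads past annotated gene ends were left out, 1668 genes could be tested and 745 were called.

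**Figure D1:**
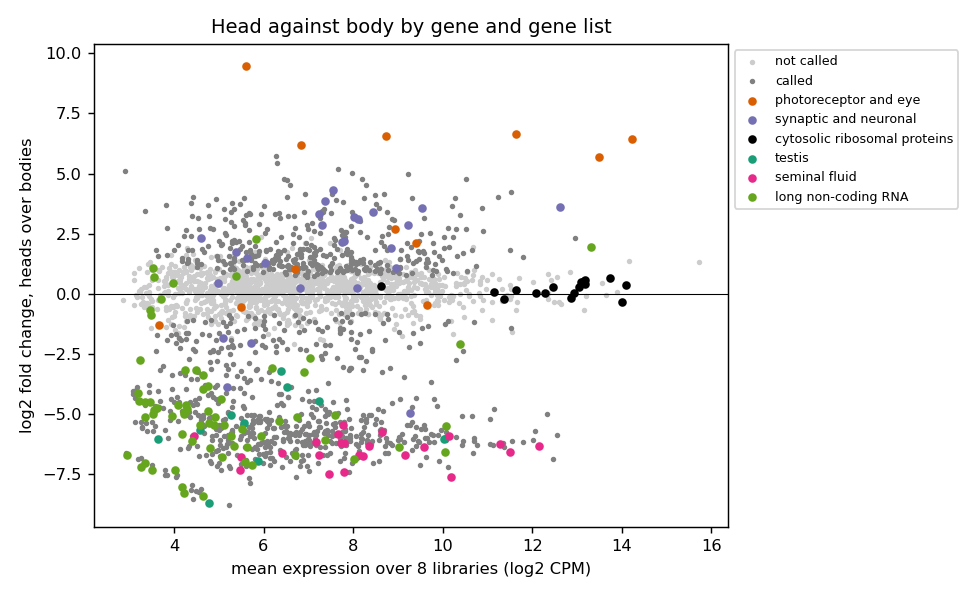
Each point is a gene tested for expression, with its mean level over the 8 libraries (log2 CPM) on the x axis and its log2 fold change, heads over bodies, on the y axis. Coloured points are members of 6 gene lists: most eye and most neuronal genes lie above 0, the 17 cytosolic ribosomal protein genes lie near 0, and testis, seminal fluid and most long non-coding RNA genes that passed the filter on low counts lie below.

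Among genes called higher in heads, without overlap and with a mean of at least 10 CPM, the 12 with the smallest p included some known from neurons and the eye. nrv3, a beta subunit of the sodium pump, had the smallest p of these, with 1536, 1497, 1302 and 1112 CPM in heads and 130.8, 214.4, 78.6 and 75.9 CPM in bodies (log2 fold change 3.56, SE 0.35, adjusted p = 8.143e-05). Sytalpha, of the synaptotagmin family of vesicle proteins, had 256.3, 333.1, 439.9 and 407.0 CPM in heads and 31, 18.5, 13.7 and 10.5 CPM in bodies (log2 4.32, SE 0.45, adjusted p = 9.426e-05). CarT, a transporter of carcinine used in histamine recycling in the eye, had 253.3, 158.1, 156.0 and 138.1 CPM in heads and 10.4, 18.5, 4.27 and 1.5 CPM in bodies (log2 4.74, SE 0.52, adjusted p = 0.00011). In each of these genes the lowest head library was several times the highest body library.

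The others in that group were in neither the neuronal nor the eye gene list. Shab, a voltage-gated potassium channel, averaged 360.7 ± 106.8 CPM in heads and 69.9 ± 33.6 CPM in bodies (SD, n = 4 each; log2 2.45). GC, which encodes gamma-glutamyl carboxylase, averaged 274.3 ± 66.4 CPM in heads and 30.6 ± 12.7 CPM in bodies (log2 3.17), and Scgalpha, a sarcoglycan, 303.9 ± 152.5 and 24.4 ± 2.16 CPM (log2 3.54). The heads of replicates 3 and 4 had more Scgalpha (477.8 and 386.0 CPM) than those of replicates 1 and 2 (180.0 and 171.6 CPM), all above the bodies. The remaining members, TBC1D16, cyst, Fie, witty, Schip1 and OS9, had log2 fold changes of 3.41, 3.24, 3.01, 3.98, 3.51 and 4.23. Genes were chosen for this group with no overlap between heads and bodies as a condition.

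Of the 12 eye genes 8 rose and 0 fell, with a median log2 fold change of 4.2 against 0.04 over all genes tested. Ggamma30A, the gamma subunit of the G protein of phototransduction, had 25569, 37925, 14041 and 11749 CPM in heads and 727.1, 2074, 127.3 and 90.2 CPM in bodies (log2 5.69, SE 0.74, adjusted p = 0.00025). Replicates 1 and 2 were the higher ones in both tissues. bsh, a homeobox gene of the optic lobe, had 24.4, 138.0, 112.7 and 117.1 CPM in heads and no reads in any body, at least 126-fold higher when bodies are set to 3 counts in all. The eye genes that did not pass were eya (log2 1.02), cl (−0.45), dac (−0.55) and ninaD (−1.29).

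Of 25 neuronal genes tested 17 rose and 4 fell, with a median log2 fold change of 2.15. Over all genes tested 17.4% rose and 30.3% fell. nSyb and Syt1, of the vesicle fusion machinery, rose by log2 3.85 and 3.6. VGlut, the vesicular glutamate transporter, rose by 3.41 on the log2 scale, and the neuropeptide genes sNPF and Dh31 by 3.34 and 2.86. The 4 that fell were beat-Ic, an immunoglobulin superfamily gene of axon guidance, the neuromuscular glutamate receptor subunit GluRIIA, the potassium channel Shaw and the presynaptic scaffold Liprin-alpha. beat-Ic had 16.8, 60.6, 41.5 and 34.8 CPM in heads and 1525, 1212, 904.6 and 1180 CPM in bodies (log2 −4.98, SE 0.47, adjusted p = 7.561e-05), a separation as complete as that of nrv3 and in the other direction. Its relative beat-Ib rose by log2 2.86.

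All 4 glial genes tested rose, but nrv2 depended on a single library. Eaat2, a transporter of excitatory amino acids, had 213.6, 666.2, 334.4 and 261.6 CPM in heads and 23.5, 40.7, 21.4 and 17.3 CPM in bodies (log2 3.88, SE 0.45, adjusted p = 0.00014). nrv2, a sodium pump subunit of glia, had 45446 CPM in head replicate 1 against 1797 to 3457 CPM in the other heads and 751.7 to 4110 CPM in bodies. Its call (log2 2.33, adjusted p = 0.0378) was lost without head replicate 1 (log2 1.12, adjusted p = 0.30) and with the replicate block (log2 1.76, adjusted p = 0.0630). It was also lost without any other library except head replicate 2. Without head replicate 3, 2 of the 4 glial genes were called.

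Of 3 circadian genes the clock gene tim rose (log2 1.36, adjusted p = 0.0203), as did jet, an F-box protein of light resetting (log2 0.93, adjusted p = 0.0463). tim lost its call without head replicate 4 (adjusted p = 0.0516) or body replicate 4 (adjusted p = 0.0731), and jet without replicate 3 or 4 of either tissue (adjusted p = 0.0721 to 0.16). Both were also lost when reads past gene ends were left out (adjusted p = 0.14 for tim and 0.28 for jet), and jet without the low-count filter (adjusted p = 0.0542). Replicates 3 and 4 alone gave 0 calls, and the fit without head replicate 3 gave 1. Rbp9, an ELAV family RNA-binding protein, averaged 632.7 ± 320.0 CPM in heads and 361.7 ± 297.8 CPM in bodies (log2 1.10, adjusted p = 0.0243). The groups overlapped, and the call was lost without body replicate 1, 2 or 4 (adjusted p = 0.0914, 0.0657 and 0.0712) and without reads past gene ends (log2 0.12, adjusted p = 0.86). It was not called in replicates 3 and 4 alone.

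Muscle genes were divided. TpnC25D, a troponin C, had 1123, 1618, 2872 and 2154 CPM in heads and 277.5, 288.3, 336.6 and 227.8 CPM in bodies (log2 2.72, SE 0.36, adjusted p = 0.00027). The giant protein gene sls (log2 −2.06), the myosin heavy chain gene Mhc (log2 −2.37) and Msp300 (log2 −1.23), a nesprin, fell. Body replicate 1 carried 6307 CPM of Mhc against 478.2 to 1439 CPM in the other bodies, and without it the Mhc call was lost (log2 −1.62, adjusted p = 0.0541). Without the range term the calls of sls and Mhc were lost (adjusted p = 0.0599 and 0.0629). In replicates 3 and 4 alone TpnC25D was the 1 muscle gene called. Of 43 chemosensory genes 7 could be tested, 5 of which rose, among them Obp28a (log2 5.20), an odorant-binding protein, and the co-receptor Ir25a (log2 2.93). Obp22a, by name an odorant-binding protein, had 1.53, 6.73, 1.80 and 0 CPM in heads and 111.0, 48.1, 95.7 and 97.0 CPM in bodies (log2 −5.59, SE 0.73, adjusted p = 0.00025), and the gustatory receptor Gr61a fell by 2.72 on the log2 scale.

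Genes of the male reproductive tract were lower in heads without exception among those tested. All 23 seminal fluid genes tested fell (median log2 −6.38), and all 10 testis genes fell (median −5.51), against 30.3% over all genes tested. A gene read in bodies alone could pass the filter on low counts through the bodies. All 10 testis genes passed it, as did 23 of 26 seminal fluid genes. Of those left out, Sfp36F and Sfp23F had 2 and 0 reads in heads and 220 and 27 in bodies, while Acp1 had 3 and 1. Vha16-5, Vha68-3 and twe of the testis list are given again below under other lists. Acp26Ab, an accessory gland peptide passed to the female, had 24.4, 40.4, 11.7 and 2.74 CPM in heads and 1481, 3105, 558.6 and 888.7 CPM in bodies (log2 −6.38, SE 0.58, adjusted p = 7.2e-05). Mst27D, named as a male-specific transcript, had 0, 0, 0.90 and 0.91 CPM in heads and 224.8, 118.3, 54.7 and 68.4 CPM in bodies (log2 −6.93, SE 0.65, adjusted p = 7.561e-05). The serpin Spn28F had 405.9, 97.6, 137.0 and 15.6 CPM in heads and 34647, 6369, 3049 and 3239 CPM in bodies (log2 −5.85, SE 0.97, adjusted p = 0.00089), with body replicate 1 far above the other bodies.

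Many of the genes that separated the tissues most clearly in this direction have no descriptive name. CG3748 had 4.58, 3.37, 4.51 and 1.83 CPM in heads and 419.5, 724.5, 418.6 and 449.6 CPM in bodies (log2 −7.05, SE 0.44, adjusted p = 5.731e-05). The pseudogene CR33319 averaged 1.90 ± 1.04 CPM in heads and 250.1 ± 69.1 CPM in bodies (log2 −7.15). CG8851, CG15260, CG15219, CG31988, CG1428, CG15475, CG17329 and CG15423 had log2 fold changes between −7.04 (CG8851) and −5.19 (CG17329). The other members, lectin-37Db and Vha100-5, are given below with their lists. For CG1428, CG15475, CG17329 and CG15423 the bodies of replicates 1 and 2 lay above those of replicates 3 and 4.

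Some families of housekeeping function held body-enriched members beside members that did not pass. Of 7 proteasome genes tested, Prosalpha6T (log2 −6.05), Prosbeta4R2 (−5.26) and Prosbeta5R2 (−4.39) fell, while their relatives Prosalpha6 and Prosbeta4 had log2 fold changes of 0.40 and 0.43 that did not pass. Prosalpha6T had 0, 0, 2.70 and 1.83 CPM in heads and 55.5, 22.2, 116.2 and 154.9 CPM in bodies, with no overlap. Rpn3, of the regulatory particle, was called higher (log2 0.98, adjusted p = 0.0471), though in replicates 3 and 4 alone, or without head replicate 3, no proteasome gene rose.

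The same division appeared in energy metabolism. Of 19 oxidative phosphorylation genes 4 fell and 0 rose. That share of lower genes did not exceed the 30.3% over all genes tested. ATPsynGL, an ATP synthase subunit by name, had 1.53, 30.3, 6.31 and 1.83 CPM in heads and 203.2, 961.0, 170.8 and 171.4 CPM in bodies (log2 −5.37, SE 0.85, adjusted p = 0.00068), while ATPsynG had a log2 fold change of −0.04 (SE 0.36). The cytochrome c gene Cyt-c-d fell by 5.47 on the log2 scale, and Cyt-c-p had −0.75 (adjusted p = 0.19). COX6CL, related by name to a cytochrome oxidase subunit, fell (log2 −5.03), and ND-B8, of complex I, had 7.63, 3.37, 10.8 and 4.57 CPM in heads and 257.7, 340.1, 607.3 and 598.5 CPM in bodies (log2 −5.99, SE 0.44, adjusted p = 5.731e-05). The other 15 genes, most of complex I, did not pass.

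**Figure D2:**
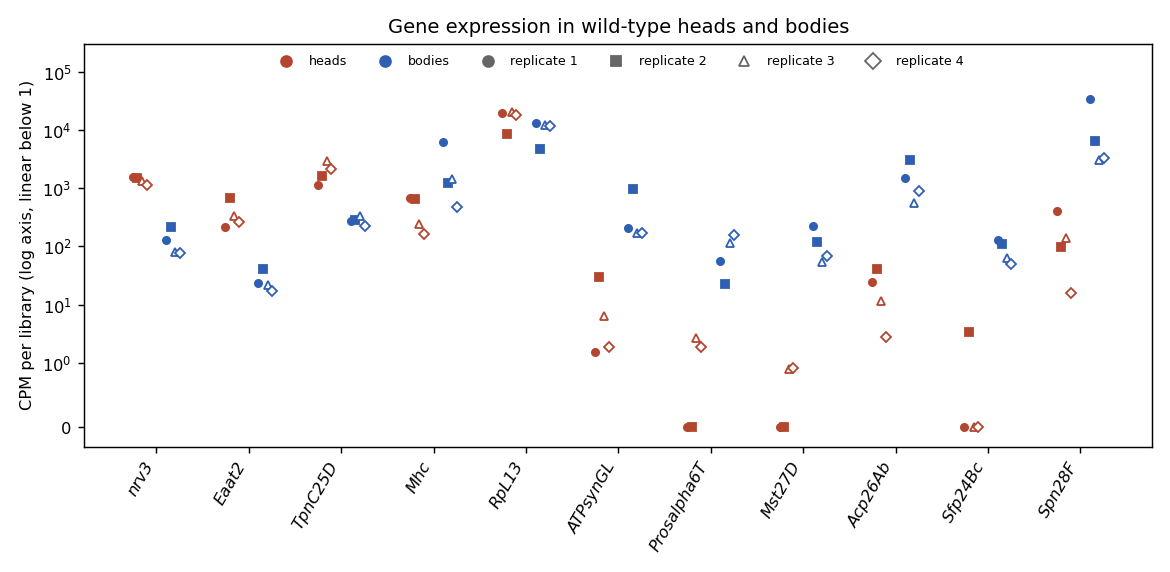
Each point is the CPM of a gene in a library (log axis, linear below 1), heads left of bodies, for 11 genes named in the text. Heads and bodies separate for nrv3, Eaat2 and TpnC25D, which were higher in heads, and for Prosalpha6T, ATPsynGL, Mst27D, Acp26Ab, Sfp24Bc and Spn28F, which were lower, while RpL13 and the Mhc libraries lie closer.

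The vacuolar proton pump had members on both sides. Its members Vha68-3 and Vha16-5 were also counted in the testis list. Vha68-1, a catalytic subunit, had 634.7, 639.3, 1112 and 986.9 CPM in heads and 198.5, 218.1, 259.7 and 246.6 CPM in bodies (log2 1.83, SE 0.27, adjusted p = 0.00048), and VhaM9.7-a rose by 3.35 on the log2 scale. Vha100-5 (log2 −5.78) and Vha68-3 (log2 −3.21) fell, while Vha68-2 had a log2 fold change of −0.30 (SE 0.56). Vha16-5 had no reads in heads and 44.2 to 75.2 CPM in bodies, at least 62.0-fold lower when heads are set to 3 counts in all. Reads that near-identical copies share could have been placed at either copy, which leaves the counts of such relatives uncertain.

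Of 17 cytosolic ribosomal protein genes 0 were called at the adjusted threshold (range of log2 fold change −0.32 for RpL27A to 0.66 for RpL13). With the replicate block RpL13 was called (log2 0.70, adjusted p = 0.0151), and without head replicate 3 1 of 18 fell. Of 16 mitochondrial ribosomal protein genes mRpL10 was called (log2 0.83, adjusted p = 0.0477), a call lost under RLE scaling (adjusted p = 0.0715), with replicates 3 and 4 alone, and without any library other than head replicate 2. mRpL23 (log2 0.69, adjusted p = 0.0671) passed with the replicate block (adjusted p = 0.0470).

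Immune and digestive genes were lower or not called. Of 16 immune genes 7 fell, 4 of them C-type lectins, and 0 rose, while in replicates 3 and 4 alone 6 fell and 1 rose. The share lower over all genes tested was 30.3%. lectin-37Db had 3.05, 3.37, 11.7 and 7.32 CPM in heads and 198.5, 181.1, 423.7 and 397.0 CPM in bodies (log2 −5.55, SE 0.35, adjusted p = 5.731e-05), while lectin-28C had a log2 fold change of −0.17 that did not pass. Of 7 digestive genes the proteases Jon25Bi, Jon25Bii and Jon25Biii and the maltase Mal-B1 fell (log2 −4.39, −4.71, −6.62 and −2.61), and Mal-B2 (0.71) did not pass. Body replicate 2 carried 0 CPM of Jon25Biii, where the other bodies had 561.2 to 2357 CPM and heads 0 to 14.4 CPM. Its call was lost without body replicate 1 (log2 −4.67, adjusted p = 0.0870). In replicates 3 and 4 alone 2 digestive genes were called.

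Metabolic genes were mixed. Of 18 detoxification genes 4 rose, including the cytochrome P450 gene Cyp28d1 (log2 2.20), and 3 fell, including the glucuronosyltransferase gene Ugt305A1 (log2 −5). These counts are to be read against 17.4% higher and 30.3% lower over all genes tested, and in replicates 3 and 4 alone 2 rose and 3 fell. FASN2, a fatty acid synthase, had 12.2, 67.3, 111.8 and 75.9 CPM in heads and 151.4, 158.9, 1245 and 1782 CPM in bodies (log2 −3.09, SE 0.64, adjusted p = 0.0032). Its neighbour FASN1 had a log2 fold change of 0.58 (adjusted p = 0.14), and FASN2 was the 1 called of 8 fat body genes. The cuticle gene Cpr62Ba was called lower (log2 −1.51, adjusted p = 0.0211), but not without body replicate 1 or 3, or head replicate 2 or 4 (adjusted p = 0.0672 to 0.13), and in replicates 3 and 4 alone 0 cuticle genes were called.

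Of 6 cell cycle genes 4 fell, against 30.3% lower over all genes tested. fzy, an activator of the anaphase-promoting complex, had 85.4, 77.4, 1.80 and 1.83 CPM in heads and 2193, 1290, 41.0 and 61.7 CPM in bodies (log2 −4.52, SE 0.37, adjusted p = 6.016e-05). The heads of replicates 1 and 2 exceeded the bodies of replicates 3 and 4, so the groups overlapped over all libraries but not within a range. Without the range term the fzy call was lost (adjusted p = 0.0690). The securin gene pim (log2 −3.66), the meiotic phosphatase gene twe (−3.88) and Cdk1 (−3.13) fell as well, of which twe was also counted in the testis list. Of 5 tested female germline genes 0 were called, and 1 was called lower in replicates 3 and 4 alone or without head replicate 3.

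Of 595 long non-coding RNAs annotated in the named stretches, 131 had no reads and 68 passed the filter on low counts. Of the 68, 58 fell and 2 rose, but an RNA high in bodies alone could pass the filter through the bodies, so this count does not describe the class. Summed over all members, long non-coding RNAs had 5925 to 38258 CPM in heads and 10917 to 30103 CPM in bodies, and the groups overlapped. lncRNA:CR40465 had 0, 0, 0.90 and 0.91 CPM in heads and 92.2, 129.4, 86.3 and 115.8 CPM in bodies (log2 −7.12, SE 0.56, adjusted p = 5.731e-05). The 2 that rose were lncRNA:CR42862 (log2 1.96, adjusted p = 0.0428) and lncRNA:CR44598 (log2 2.30, adjusted p = 0.0170), and 0 rose with replicates 3 and 4 alone. Of 113 antisense RNAs annotated there, 14 passed the filter, and the same limit applies to them. Of the 14, 7 fell and 1, asRNA:CR46263, rose (log2 1.82), where 30.3% of all genes tested were lower. Summed over all members, antisense RNAs had 291.8 to 427.2 CPM in heads and 895.2 to 1227 CPM in bodies.

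To cover all euchromatic arms, expression was also tested at 13939 sites without regard to genes. Of these 2496 were higher in heads (17.9%) and 3441 were lower (24.7%), or 42.6% in all. Without the range term 3708 sites were called (956 up in heads, 2752 down), and without the filter on low counts 10904 (2852 up, 8052 down). With the replicate block 7904 were called (3943 up, 3961 down). The site-level CPM are not on the scale of the gene levels above.

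On chromosome 4 and the X chromosome more of the called sites were higher than lower in heads, unlike on the large autosomal arms, although for X this held under some settings only. On chromosome 4, a small and largely heterochromatic chromosome, 74 of 91 called sites were higher in heads (81.3%, exact 95% interval 71.8 to 88.7%, counting error only, with sites of a gene not independent). On X 456 of 826 were higher (55.2%, interval 51.7 to 58.6%), against 35.1% on 2L, 39.1% on 2R, 40.2% on 3L and 41.5% on 3R. The median log2 fold change of all sites tested was 0.89 on chromosome 4 and 0.35 on X, against 0.03 to 0.09 on the other arms. Chromosome 4 took 0.64 to 0.99% of arm reads in heads and 0.38 to 0.52% in bodies, with no overlap, and X 14.3 to 16.5% in heads and 10.2 to 12.6% in bodies. The share for X moved with settings, to 50.4% under RLE scaling and 37.9 to 61.4% over all alternatives, while that for chromosome 4 stayed between 71.1 and 84.9%. RLE scaling moved the median log2 fold change of all sites to −0.04, against 0.12 with TMM. Over the alternatives the median of chromosome 4 lay 0.75 to 2.08 above that of all sites, and that of X 0.20 to 1.13 above. The majority of higher sites on X was lost without body replicate 3 or head replicate 1, 3 or 4 (43.1 to 49.8%), without the low-count filter (37.9%) and without the range term (39.0%). These differences between arms were seen in the data and were not tested.

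**Figure D3:**
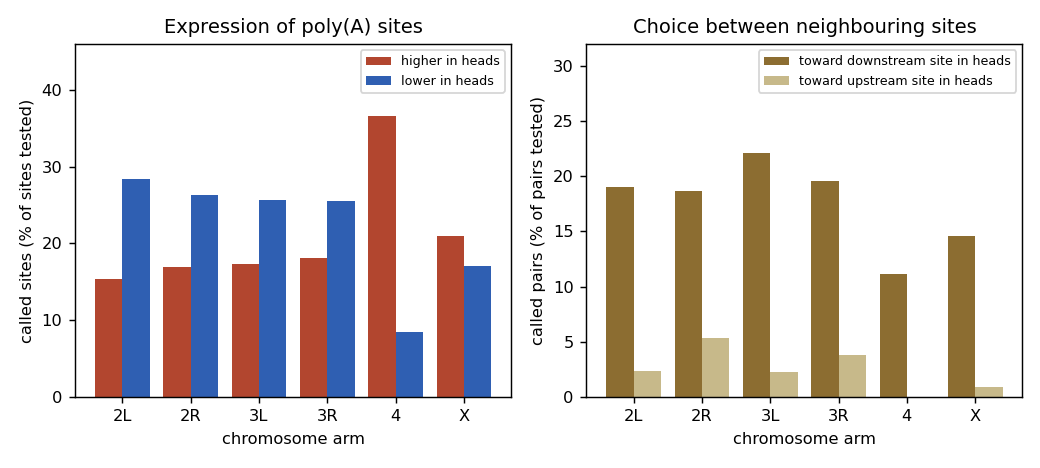
Left, called poly(A) sites as a percentage of the sites tested on each chromosome arm, higher (red) or lower (blue) in heads. Right, called pairs of neighbouring sites as a percentage of the pairs tested, toward the downstream (dark) or the upstream site (light) in heads; chromosome 4 and X have more sites higher than lower in heads (X not under every alternative), and every arm has more pairs that moved downstream.

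Examples among the sites with the smallest p on arms without gene names are given by position in BDGP5. On chromosome 4 the site at 609986 on the plus strand had 43.1, 20.1, 73.1 and 65.9 CPM in heads and 3.14, 2.45, 2.52 and 3.49 CPM in bodies (log2 4.02, SE 0.44, adjusted p = 0.00016). On X the plus-strand site at 5228579 had 78.1, 82.7, 57.3 and 59.3 CPM in heads and 6.27, 5.52, 3.53 and 3.18 CPM in bodies (log2 3.93, SE 0.30, adjusted p = 0.00012). On 3R the minus-strand site at 8519948 had 0.70, 0.57, 0.68 and 0.47 CPM in heads and 153.5, 88.2, 64.5 and 81.4 CPM in bodies (log2 −7.15, SE 0.43, adjusted p = 0.00012). The lowest library of the higher group was at least 5 times the highest of the other in all 3.

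The most abundant sites, chosen after their values were seen, depended on library. The plus-strand site at 11072339 on 3R had 56798 CPM in head replicate 2 and 33759 CPM in body replicate 2, but 17.9 to 54.4 CPM in the other heads and 67.0 to 84.4 CPM in the other bodies (log2 0.07, adjusted p = 0.98). The minus-strand site at 21657316 on 3R had 1512, 398.5, 148.3 and 17.8 CPM in heads and 112510, 56118, 5966 and 6320 CPM in bodies (log2 −6.34, SE 0.88, adjusted p = 0.00044). The minus-strand site at 18462475 on 3L had 6.30, 0, 678.6 and 116.7 CPM in heads and 416.6, 12.9, 39039 and 56468 CPM in bodies (log2 −6.48, adjusted p = 0.0051), high in body replicates 3 and 4 where the 3R site was high in body replicates 1 and 2. The call of this 3L site was lost without the range term (adjusted p = 0.12).

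Choice between sites of the same 3'UTR was tested to ask whether the tissues end their transcripts at different places. Among 732 genes whose 2 most used 3'UTR sites could be compared, 137 were called (18.7%), 135 of them more distal in heads (18.4%) and 2 more proximal (0.273%). The minimum of 5% at the minor site was set over the 8 libraries together, so a pair could pass it through 1 tissue alone. Per library, the median distal share over the 421 genes with at least 5 reads of the pair in every library was 66.7, 61.3, 57.1 and 56.9% in heads and 40.4, 37.5, 40.9 and 38.3% in bodies. Heads averaged 60.5 ± 4.59% and bodies 39.2 ± 1.61% (SD, n = 4 each), a difference of 21.3 percentage points (exact two-sided permutation p = 0.0286, the smallest that 4 against 4 allows). With libraries paired by number an exact sign-flip test gave p = 0.125, the smallest that 4 pairs allow. Within replicates 1 and 2 the difference was 25.1 points and within replicates 3 and 4 it was 17.5 points. With the replicate block 292 genes were called, 277 of them distal in heads, and without the range term 40. Without head replicate 3 or 4, or body replicate 3 or 4, the count was 86, 88, 90 and 79.

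**Figure D4:**
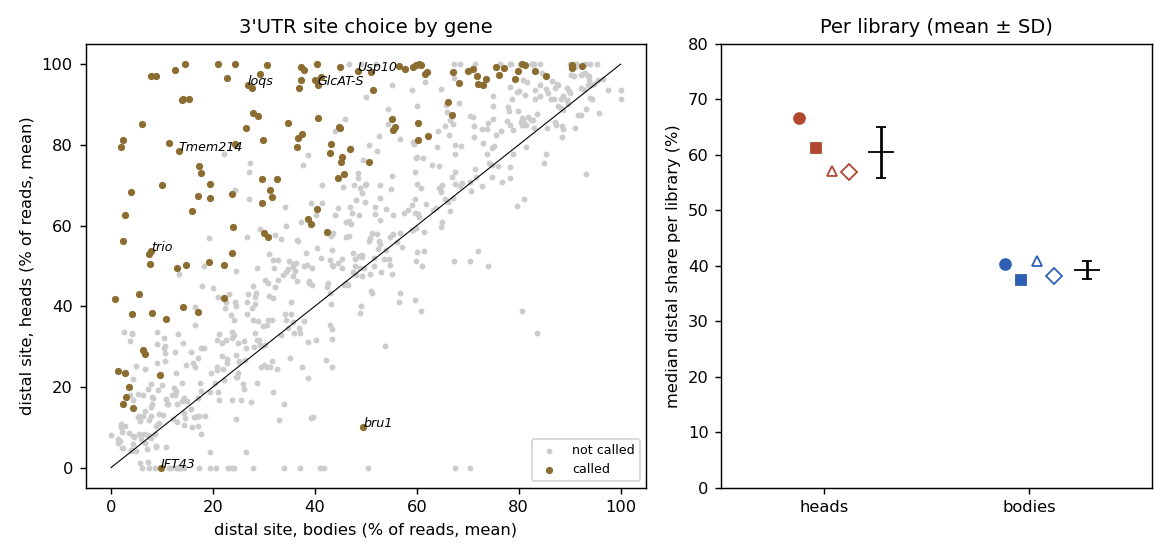
Left, each point is a gene, with the mean share of reads at the distal site in bodies on the x axis and in heads on the y axis (%); called genes are brown, and all but bru1 and IFT43 lie above the diagonal. Right, the median distal share of each library (%), heads left of bodies, with the mean and SD over 4 libraries; the heads sit between 56.9 and 66.7% and the bodies between 37.5 and 40.9%.

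loqs, a double-stranded RNA-binding partner of Dicer-1, gave the smallest p. Its distal site, 125 nt past the proximal site, took 95.3, 94.8, 94.5 and 95.1% of the pair's reads in heads and 35.3, 26.1, 20.7 and 25.2% in bodies, over 1482 and 1873 reads (log2 odds 5.71, SE 0.41, adjusted p = 0.00020). trio, a guanine nucleotide exchange factor known in axon guidance, used a site 1225 nt farther for 46.3, 50.8, 55.8 and 62.3% of reads in heads and 5.47, 8.11, 9.85 and 8.17% in bodies (log2 odds 3.80, SE 0.40, adjusted p = 0.00062). RhoGEF3, another such factor, used its distal site for 90.9, 91.6, 89.7 and 93.6% in heads and 25.2, 9.72, 20.5 and 5.83% in bodies (log2 odds 6.05, SE 0.64, adjusted p = 0.00062). Heads and bodies were far apart in each, and none of the 3 genes was called in expression (log2 −0.01, 0.66 and −0.06).

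The other genes of the same rank behaved alike in direction but differed in how the bodies were spread. Usp10, a ubiquitin-specific protease, used a site 3116 nt downstream for 100, 99.3, 98.8 and 94.7% of reads in heads and 65.7, 60.5, 38.2 and 29.2% in bodies (log2 odds 6.21, SE 0.65, adjusted p = 0.00062). GlcAT-S, a glucuronyltransferase, used its distal site for 92.8, 87.5, 99.6 and 99.4% in heads and 19.6, 14.4, 61.6 and 66.7% in bodies (adjusted p = 0.00028). Tmem214, CG10492 and CG15824 averaged 78.5 ± 14.3, 91.5 ± 2.97 and 91.1 ± 11.2% in heads and 13.3 ± 5.56, 14.1 ± 1.3 and 13.9 ± 5.09% in bodies. The distal share of CG15824 in head replicate 2 rests on 4 reads. Usp10 bodies fell into the replicate ranges, with replicates 1 and 2 more distal, and GlcAT-S bodies did so in the other direction. The GlcAT-S call was lost without the range term (adjusted p = 0.0575).

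Against this trend, bru1, which encodes the RNA-binding translational regulator Bruno, used its distal site for 0, 40, 0 and 0.28% of reads in heads and 66.7, 88.2, 14.6 and 28.4% in bodies (log2 odds −6.38, SE 1.20, adjusted p = 0.0059). The value in head replicate 2 rests on 5 reads, and the bru1 call was lost without the range term (adjusted p = 0.14). IFT43, of intraflagellar transport, had no distal reads in heads and 18.3, 20.8, 0 and 0% in bodies (adjusted p = 0.0367), so that its call came from body replicates 1 and 2. It was lost without any single library (adjusted p = 0.0515 to 0.0836) and by limma (adjusted p = 0.24).

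Counted as length, from the last coding base to each site weighted by reads, the median 3'UTR over 1122 genes was 240.5, 236.7, 238.4 and 238.6 nt in heads and 225.2, 223.1, 225.9 and 221.2 nt in bodies. The difference was 14.7 nt (exact two-sided permutation p = 0.0286, and 0.125 by the exact sign-flip test of pairs), and the groups did not overlap. Most genes moved little, with a median difference of 2.33 nt per gene, but 155 genes were more than 100 nt longer in heads and 8 more than 100 nt shorter. Usp10 averaged 3058 ± 123.7 nt in heads and 1534 ± 442.6 nt in bodies (SD, n = 4 each), and CG10492 1175 ± 37.8 and 274.6 ± 14.8 nt. trio averaged 1468 ± 36.6 nt in heads and 879.3 ± 39.6 nt in bodies. For bru1, over its 22 sites, the length averaged 1370 ± 79.9 nt in heads and 1474 ± 113.5 nt in bodies, and heads and bodies overlapped.

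Site choice and expression were set side by side for the same genes. Of the 135 genes called toward the distal site in heads, 18 were higher in expression (13.3%), 27 were lower (20%) and 90 were not called (66.7%). Over all genes tested for site choice the shares were 20.9%, 21.4% and 57.7%. Tmem214 and CG10492 were among those lower in heads (log2 −2.27 and −1.11), with the distal site dominant there.

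Choice between neighbouring sites, which needs no gene model, carried the comparison to the other arms. Of 1574 pairs tested 346 were called (22%), 298 toward the downstream site in heads (18.9%) and 48 toward the upstream site (3.05%). Outside the named stretches 266 of 1204 pairs were called, 226 downstream and 40 upstream. By arm, the called pairs toward the downstream site were 57 of 64 on 2L, 60 of 77 on 2R, 68 of 75 on 3L, 77 of 92 on 3R, 3 of 3 on chromosome 4 and 33 of 35 on X. In the named stretches 321 of 370 pairs lay in a single gene, where 64 of 68 called pairs were downstream. In the 31 pairs whose sites lay in different genes, 4 of 8 called pairs were downstream, and such pairs measure gene expression and not site choice. With the replicate block 739 pairs were called, and the count was 219, 204, 225 and 198 without head replicate 3, head replicate 4, body replicate 3 or body replicate 4.

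Examples among the pairs with the smallest p on the other arms differed in how the bodies divided their reads. On 3R the minus-strand sites at 12971171 and 12970462 lay 709 nt apart, and the downstream site took 98.5, 97.7, 95.6 and 89.9% of reads in heads and 38.1, 27.5, 16.1 and 10% in bodies (log2 odds 6.61, SE 0.50, adjusted p = 0.00020). On X the minus-strand sites at 15748941 and 15748888, 53 nt apart, gave 98.7, 98.1, 95 and 98.1% downstream in heads and 54.2, 43.6, 45.5 and 48.3% in bodies (log2 odds 5.43, SE 0.51, adjusted p = 0.00035). On chromosome 4 the plus-strand sites at 690224 and 690515 gave 98.2, 100, 99.1 and 99.0% in heads and 61.4, 68.5 and 57.9% in body replicates 1, 3 and 4, with no reads in body replicate 2 (log2 odds 5.63, SE 0.52, adjusted p = 0.00047). Heads did not overlap bodies in any of these: bodies used mainly the upstream site on 3R, both sites about evenly on X, and mainly the downstream site on chromosome 4. In the other direction, the plus-strand sites at 21535370 and 21536113 on 3L gave 11.6, 16.7, 3.85 and 0% downstream in heads and 97.7, 94.0, 95.3 and 96.1% in bodies (log2 odds −8.50, SE 0.82, adjusted p = 0.00037), and whether they lie in a single gene was not examined.

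Upstream sites, at or before the last coding base over all annotated transcripts of a gene, were compared with the sites past it in 742 genes. Whether an upstream site lay in an intron, in coding sequence or in the 3'UTR of a shorter transcript was not examined. Of the 742 genes 119 were called (16%), 24 with more upstream use in heads (3.23%) and 95 with less (12.8%). The minimum of 1% of reads in each class was set over the 8 libraries together, so a gene could pass it through 1 tissue alone. In the 95 the most used upstream and 3'UTR sites were far apart: 58 (61.1%) lay at least 5000 nt from each other, against 32.2% of all genes tested and 5 of the 24. limma on log2 ratios called 217 genes, 102 with more upstream use in heads and 115 with less. Without the range term 50 genes were called, and without head replicate 4 the count was 71.

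B4, among those with less upstream use in heads, had sites 38976 nt apart. Its upstream sites took 13.7, 12.8, 9.07 and 6.56% of reads in heads and 85.0, 89.1, 82.1 and 93.0% in bodies (log2 odds −5.99, SE 0.66, adjusted p = 0.00011). hbt used upstream sites for 0, 0, 0.77 and 1.19% of reads in heads and 64.1, 57.1, 68.9 and 82.1% in bodies (log2 odds −8.51, SE 0.73, adjusted p = 4.435e-05), while its expression was higher in heads (log2 1.96). Ddr, a discoidin domain receptor, used them for 55.6, 0, 29.7 and 16.7% in heads and 98.9, 100, 98.8 and 98.7% in bodies (adjusted p = 0.00011), although head replicates 1 and 2 had 9 and 2 reads.

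promL and fipi differed between the replicate ranges. promL, related to prominin, used upstream sites for 22.9, 42.4, 0.81 and 0.32% of reads in heads and 98.8, 98.6, 52.4 and 53.7% in bodies (log2 odds −7.49, SE 0.73, adjusted p = 6.359e-05). Within each range the heads lay below the bodies, but the call was lost without the range term (adjusted p = 0.12). fipi, an immunoglobulin domain gene known from courtship song, had 0, 0, 0.76 and 0.58% in heads and 6.67, 0, 71.3 and 71.2% in bodies (adjusted p = 0.00011), where body replicates 1 and 2 held 15 and 20 reads.

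**Figure D5:**
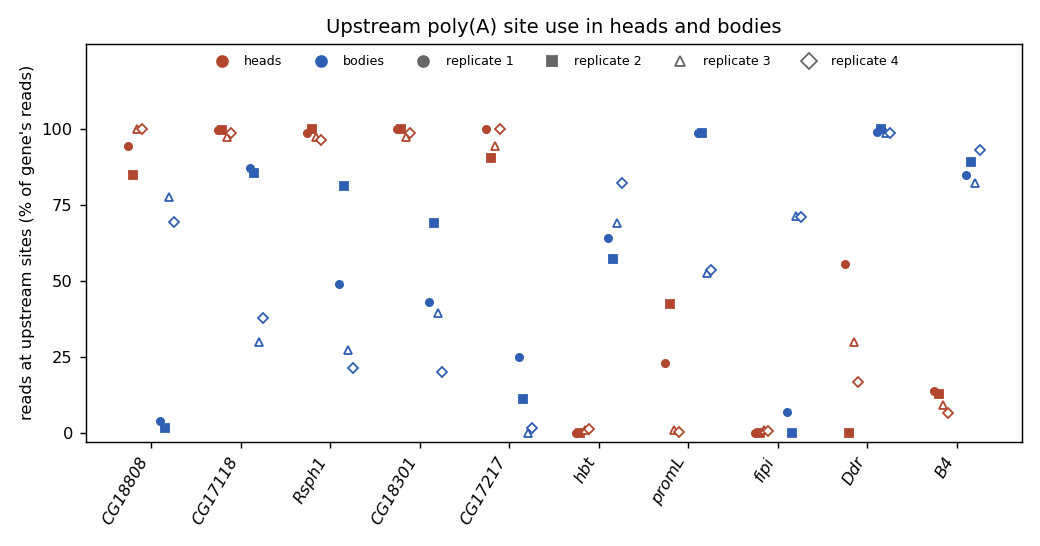
Each point is the percentage of a gene's reads at upstream sites in a library, heads left of bodies, for the 5 genes with the smallest p in each direction. The 5 genes on the left have heads between 84.8 and 100%, and the 5 on the right have heads below their bodies within each replicate range, except fipi, where body replicate 2 also had 0%.

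More upstream use in heads was seen in 24 genes, several without a descriptive name. CG17217 used upstream sites for 100, 90.5, 94.4 and 100% of reads in heads and 25, 11.1, 0 and 1.39% in bodies (log2 odds 9.44, SE 1.28, adjusted p = 0.00034). Rsph1, by name a radial spoke head protein, a part of motile cilia and flagella, used them for 98.6, 100, 97.5 and 96.3% in heads and 48.9, 81.3, 27.2 and 21.1% in bodies (log2 odds 6.39, SE 0.74, adjusted p = 0.00013). CG18808 used them for 94.3, 84.8, 100 and 100% in heads, and for 3.66, 1.62, 77.7 and 69.3% in bodies, so that bodies of replicates 1 and 2 stood apart from those of 3 and 4. Its call was lost without the range term (adjusted p = 0.0762). CG17118 and CG18301 averaged 98.8 ± 1.11 and 99.0 ± 1.24% in heads and 60 ± 30.5 and 42.8 ± 20.1% in bodies. Of the 23 genes of this class with an expression test, 12 were lower in heads (52.2%), against 27.1% of all genes tested for upstream use.

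The tissue difference itself was compared between the ranges. A tissue by range interaction in gene expression was called by edgeR in 0 of 2363 genes, with 124 at an unadjusted p under 0.05 and a smallest adjusted p of 0.12 (oaf). With 2 libraries per tissue in each range, 0 calls do not show that the difference was the same in both. The interaction was not tested for site choice or upstream use. Fitted within a range, 837 genes were called in replicates 1 and 2 and 911 in replicates 3 and 4.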

How the data were processed

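Poly(A) site counts were used from 4 wild-type head and 4 wild-type body libraries; positions of all 12 libraries defined the sites. The deposited files hold, per position and strand, whole-number read counts made by the authors; per the submitters' processing notes, reads were aligned with Bowtie2 to BDGP5. Filters on tails, the treatment of reads shared by copies and the protocol version of each library are not stated in the labels or notes.

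Positions within 24 nt on a strand were joined into 246216 sites (read-weighted median width 139 nt), so close sites may be merged. Gene models came from BDGP6, without conversion of coordinates, and were used where positions with at least 200 reads fell within 10 nt of an annotated transcript end at identical coordinates (61.7% on the 2L stretch and 57.5% on the 3L stretch, and at most 0.51% elsewhere). There, 91.9% of reads were assigned to 1 gene on their strand, up to 1000 nt past its end; reads at overlapping genes (7.33%) were left out.

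edgeR 4.0.16 in R 4.3.3 (TMM, filterByExpr, quasi-likelihood test) gave all adjusted p-values, with replicate range as a term. Site choice was tested on paired columns with a term per library, for pairs with a mean of 20 reads per library and a minor site of at least 5%, and upstream use where each class held at least 1%. Neighbouring sites each had a mean of 20 reads and lay within 1000 nt of the next. These limits were applied to the 8 libraries together, not within each tissue. On simulated counts 90% of genes changed by 2 on the log2 scale were recovered, and 71% of pairs in site choice. The simulation gave all genes the median dispersion and all pairs a fixed spread, without effects of range or replicate. Its rates therefore need not hold for these libraries. DESeq2 1.42.0, limma 3.58.1 (0.5 reads added) and other settings were alternatives.

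Same-numbered heads and bodies deviated together from their tissue means (correlations across genes 0.74, 0.74, 0.74 and 0.70), so the replicate number was also fitted as a block. Taken from the means of tissue and range, the correlations were 0.65 for replicates 1 and 2 and 0.014 for replicates 3 and 4.

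Named genes were the 12 with the smallest p in each direction among those called with at least 10 CPM and no overlap of tissues, and up to 3 of each list. For 3'UTR choice they were up to 8 in each direction and for upstream use 5, each differing by 5 points or more, and for sites and pairs 2 in each direction per arm, of which a part is printed. Other list members are named with their list. The comparison, members and lists were chosen with earlier results of these data known.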

Additional observations from a re-analysis of the deposited data

Results flagged for a closer look

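Of 362 groups of 4 libraries examined, 25 held a library far from the other 3 relative to the range of the group. For independent groups chance alone gives about 1 in 20, but these groups share libraries, so that rate is only a rough guide. In 23 of the 25 the library stood high. Of the 25, 8 were body replicate 2, 6 head replicate 2 and 6 head replicate 3.

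Head replicate 1 stood high in nrv2 (45446 CPM, other heads 1797 to 3457) and so in the summed glial genes (46775 CPM). Head replicate 2 stood high in Jon25Bii (178.3 CPM, other heads 5.49 to 27.0), Prosbeta4R2 (50.5 CPM), ATPsynGL (30.3 CPM) and Sfp24Bc (3.37 CPM, other heads 0). The Sfp24Bc value was 1 read. Body replicate 2 stood high in Jon25Bii (3064 CPM), ATPsynGL (961 CPM), CG3748 (724.5 CPM), Mst36Fb (140.5 CPM) and Spn28Db (70.2 CPM). Both replicates 2 stood high at the 3R site at 11072339 (56798 CPM in the head and 33759 CPM in the body).

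Head replicate 3 stood high in the summed seminal fluid genes (1103 CPM, other heads 131.7 to 282.6), lectin-29Ca (25.2 CPM) and, with 0.90 CPM each, asRNA:CR32252 and asRNA:CR44911. The values of these antisense RNAs were 1 read each. Body replicate 1 stood high in Mhc (6307 CPM), Spn28F (34647 CPM) and the 2L site at 10692938 (14003 CPM, other bodies 2250 to 3686).

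Among shares, head replicate 2 stood high for the distal site of bru1 (40%, from 5 reads) and body replicate 2 for upstream use of Ddr (100%, other bodies 98.7 to 98.9%). On X, head replicate 3 was low in the downstream share of the pair at 15748941 (95%) and high in that of the pair at 19519763 (2.03%, other heads 0), where body replicate 2 was low (22.2%, other bodies 61.1 to 68.6%).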

How the results depend on the processing

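Of the called values of named genes, sites and pairs, 0 changed sign under any alternative run; among values not called, those of the 3R site at 11072339 (log2 0.07, −0.17 under DESeq2 and RLE scaling, and below 0 under others) and of bru1 expression did. Over the named results, under other settings 1051 of 1092 stayed on their side of the threshold, 33 lost and 8 gained it, and without 1 library 1184 of 1237 stayed, 47 lost and 6 gained it. Genes called numbered 745 without reads past gene ends, and sites 10904 without the low-count filter. Without the range term the counts were 3708 sites, 40 genes in 3'UTR choice, 50 in upstream use and 103 neighbouring pairs, and 802 genes in expression; the cause was not tested. With the replicate block they were 7904 sites, 292 in 3'UTR choice and 739 pairs, and nrv2 lost its call, while RpL13, mRpL23 and the 2L site at 10692938 (log2 1.24, adjusted p = 0.0040) gained one; among the named results the block changed no other call. limma called 217 genes in upstream use, and gaps up to 500 or 2000 nt gave 224 pairs (10 toward the upstream site in heads) or 552 (167 upstream), against 48 upstream of 346. The distal share differed by 25.1 points within replicates 1 and 2 and 17.5 points within 3 and 4. Leaving out 1 library at a time gave 919 to 1373 genes, 5079 to 7577 sites, 79 to 167 genes in 3'UTR choice, 71 to 147 in upstream use and 198 to 403 pairs; each lowest count came without a replicate 4. DESeq2 called 1310 genes, and 0 interactions were called under any alternative. RLE scaling moved the median of all genes to −0.06, against 0.04. Replicate 2 of both tissues is the shallowest, and shares there rest on few reads.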
